A study of Mus musculus with 4 samples.

Results

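The cells of blood vessels and of the leptomeninges were followed through 30 marker genes, chosen by name: 15 genes of endothelial cells, 10 of mural cells and 5 of leptomeningeal fibroblasts, out of 31735 gene rows shared by 4 libraries. The rule that chose them names symbols and sets no level. The libraries hold ribosome-bound RNA from the rostral pons of adult Cbln2-TRAP NIDA172 mice, which carry the fusion EGFP/Rpl10a. In translating ribosome affinity purification (TRAP), antibodies against EGFP pull tagged ribosomes and their RNA onto magnetic beads. Every mouse was an untreated control, and all 4 libraries were immunopurified, so they form 1 group. The labels name the line after Cbln2 and do not list which cell types carry the tag. Whether each replicate is its own animal or pool is not stated, so a p-value reflects only how far these libraries spread, and that spread may be technical. Unpurified RNA was not analysed here, so a level is a share of the purified RNA and says nothing of enrichment over whole pons. The descriptions number replicates 3 and 4 as libraries 2469 and 2470 (called the second pair here) and replicates 1 and 2 as libraries 1666 and 1667 (the first pair). No label calls the pairs batches, and setting them against each other compares replicates of 1 condition. The description of replicate 4 carries the replicate label of replicate 3. The titles were followed. The counts of these libraries differed by a chi-square of 215 per degree of freedom over 10632 genes, so neither is a copy of the other. This cannot decide between title and description, since 2 libraries of 1 sample may differ too.

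Endothelial cells line every brain capillary and form the blood-brain barrier: tight junctions seal the gaps between them, carriers bring in glucose and hormones, and efflux pumps return drugs to the blood. Mural cells lie on the outside of the endothelium, as pericytes on capillaries and as contractile smooth muscle cells on arterioles. Fibroblasts of the leptomeninges, the thin membranes around the brain and its entering vessels, make collagens and small proteoglycans.

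Library totals were 12731825 and 15315942 gene counts in replicates 3 and 4, and 21140265 and 15556918 in replicates 1 and 2. Levels are in CPM, which scales each library to 1000000 gene counts. A single count equalled 0.0473 to 0.0785 CPM depending on the library, and where no read was counted up to 3 counts (0.142 to 0.236 CPM) remain possible. This limit and all intervals cover counting error only. The row Rn45s, named for the ribosomal RNA precursor, took 24.2% and 9.29% of replicates 3 and 4, against 1.68% and 1.61% of replicates 1 and 2, and lowers every other CPM of its library by that share.

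Detection was uneven: 15 of the 30 genes reached 1 CPM in all 4 libraries, against 33.5% of all shared rows and 76.5% of the 13905 tested genes. The shared rows include 13389 with 0 counts in all 4 libraries. The 15 members were 9 of 15 endothelial genes, 4 of 10 mural genes and 2 of 5 leptomeningeal genes. Only Flt1, Slco1a4, Slc2a1 and Rgs5 reached 10 CPM throughout, and 4 members, Cldn5, Anpep, Higd1b and Lum, were under 1 CPM on average. Per kb of exon, the endothelial genes had a median log2(CPM per kb + 0.5) of 1.34 ± 0.77 (SD, n = 4), the mural genes 0.72 ± 0.66 and the leptomeningeal genes -0.21 ± 0.44. Over all 12890 tested genes with a length, the same median was 2.22 ± 0.10. On this per-length scale Slc2a1 was first with 25.9 ± 7.44 CPM per kb (SD, n = 4) and Rgs5 second with 14.4 ± 5.36, followed by Slco1a4, Ly6c1 and Itm2a at 6.66, 6.12 and 5.74. Slc2a1 stood above Rgs5 in 4 of 4 libraries, but none of the 29 steps between neighbours in the order of the 30 genes exceeded 2 SD of their log2 ratio.

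**Figure D1:**
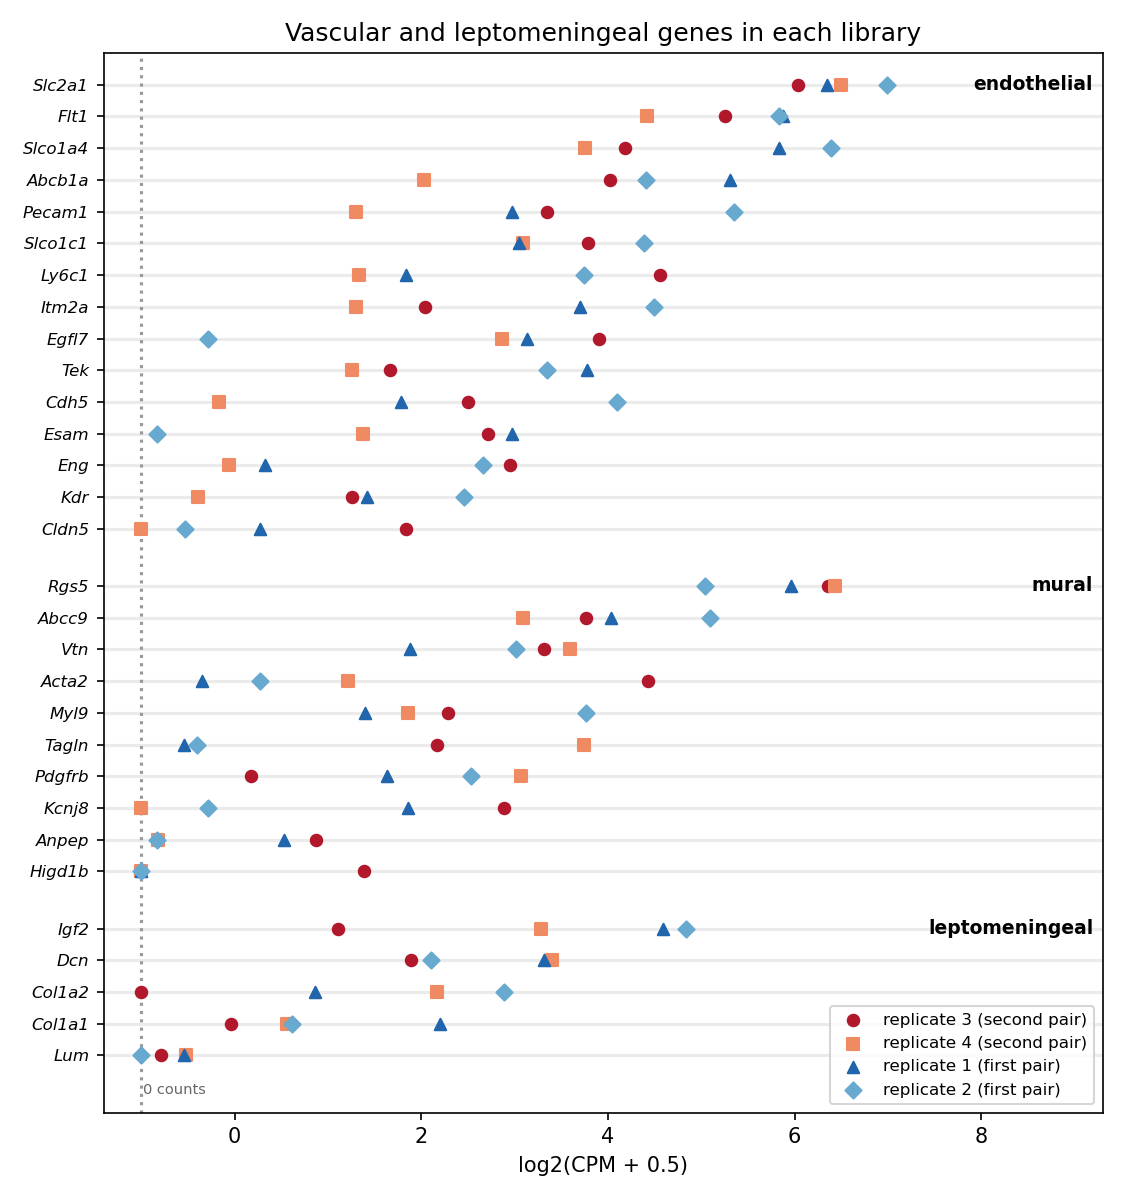
Level of each of the 30 genes in each library, as log2(CPM + 0.5) on the horizontal axis, grouped by cell type and sorted by mean CPM. Slc2a1 is the rightmost endothelial gene in all 4 libraries, while Cldn5, Kcnj8, Higd1b, Col1a2 and Lum touch the dotted line of 0 counts in at least 1 library.

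Among the endothelial genes, the glucose carrier gene Slc2a1 was highest, and the other carriers of the blood-brain barrier lay at several levels below it. Slc2a1 (GLUT1, the glucose carrier of the barrier, which glial cells also make; chromosome 4, 119108711 to 119137983, plus strand, GRCm38) was at 65.2 and 90.0 CPM in replicates 3 and 4, and at 81.3 and 127 CPM in replicates 1 and 2. It was the steadiest member, with its highest library 1.94 times its lowest. Slco1a4 (an organic anion transporter of brain endothelium; chromosome 6, 141805440 to 141856199, minus strand) was at 17.7 and 13.0 CPM in replicates 3 and 4, against 56.6 and 83.6 CPM in replicates 1 and 2. The libraries of the pairs did not overlap for Slco1a4. Slco1c1, a thyroid hormone transporter gene 235 kb away on the same chromosome, was at 13.4 and 8.03 CPM in replicates 3 and 4, and at 7.76 and 20.4 CPM in replicates 1 and 2, so its pairs overlapped. Per kb, the log2 ratio of Slco1c1 to Slco1a4 was -0.08 and -0.30 in replicates 3 and 4, and -2.22 and -1.61 in replicates 1 and 2. Slco1a4 was thus the higher of these transporter genes in 4 of 4 libraries, 2.08-fold on average, with a mean log2 ratio of -1.05 ± 1.03 (SD, n = 4) that did not reach 2 SD.

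Abcb1a (the P-glycoprotein efflux pump; chromosome 5, 8660077 to 8748575, plus strand) was at 15.7 and 3.59 CPM in replicates 3 and 4, against 39.3 and 20.7 CPM in replicates 1 and 2. Its sister gene Abcb1b had 42 and 29 counts in replicates 3 and 4, and 1 and 2 counts in replicates 1 and 2. The ratio of Abcb1b over the pairs, from counts pooled within each pair, was 31.0 (95% exact interval of counting error 10.2 to 154). That interval leaves out the spread between libraries, and Abcb1b was not among the genes that edgeR called. Of the 50-base windows of the longest Abcb1a transcript, 15.5% also occur in transcripts of Abcb1b, so reads of these 2 genes may have been set aside or misplaced.

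The promoters of the 4 members at 10 CPM or more in every library are printed to show where the most steadily detected vascular transcripts start, with that of Slco1c1 beside its neighbour Slco1a4. They run from 250 bases before to 50 after the start of the gene, on the strand of the gene, in the RefSeq annotation of GRCm38.p6. The positions are chr4:119108495-119108794 (plus) for Slc2a1, chr5:147725962-147726261 (minus) for Flt1, chr6:141856171-141856470 (minus) for Slco1a4, chr6:141524104-141524403 (plus) for Slco1c1 and chr1:169655251-169655550 (plus) for Rgs5. Capitals mark AGGAAG, a core of ETS factor sites, and TATAAA, the letters of the TATA box, each searched on both strands. The TATAAA of Slc2a1 and of Slco1c1 lies in the last 50 bases, after the annotated start, and that of Flt1 lies before it. Whether any match works as a TATA box was not tested.
Slc2a1: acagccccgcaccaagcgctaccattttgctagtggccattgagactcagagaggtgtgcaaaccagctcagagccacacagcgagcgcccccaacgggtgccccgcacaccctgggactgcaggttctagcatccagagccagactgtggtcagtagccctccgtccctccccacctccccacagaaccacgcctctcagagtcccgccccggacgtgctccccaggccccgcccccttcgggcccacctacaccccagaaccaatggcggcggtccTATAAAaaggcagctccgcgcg
Flt1: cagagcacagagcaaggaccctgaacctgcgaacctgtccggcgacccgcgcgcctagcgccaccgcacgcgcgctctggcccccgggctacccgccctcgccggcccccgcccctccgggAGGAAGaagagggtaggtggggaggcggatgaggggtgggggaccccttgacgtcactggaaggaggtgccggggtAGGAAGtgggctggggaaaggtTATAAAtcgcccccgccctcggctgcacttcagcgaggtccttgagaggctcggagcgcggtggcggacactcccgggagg
Slco1a4: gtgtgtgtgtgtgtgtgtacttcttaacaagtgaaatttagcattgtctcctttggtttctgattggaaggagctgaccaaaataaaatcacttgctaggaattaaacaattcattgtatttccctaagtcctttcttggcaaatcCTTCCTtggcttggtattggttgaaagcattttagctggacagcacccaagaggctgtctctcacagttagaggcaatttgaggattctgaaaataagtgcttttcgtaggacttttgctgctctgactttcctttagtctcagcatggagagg
Slco1c1: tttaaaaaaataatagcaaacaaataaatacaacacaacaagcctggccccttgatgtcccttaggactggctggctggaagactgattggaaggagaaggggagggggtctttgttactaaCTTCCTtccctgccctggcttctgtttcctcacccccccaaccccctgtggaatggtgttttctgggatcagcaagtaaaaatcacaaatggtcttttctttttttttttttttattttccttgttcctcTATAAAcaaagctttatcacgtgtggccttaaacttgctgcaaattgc
Rgs5: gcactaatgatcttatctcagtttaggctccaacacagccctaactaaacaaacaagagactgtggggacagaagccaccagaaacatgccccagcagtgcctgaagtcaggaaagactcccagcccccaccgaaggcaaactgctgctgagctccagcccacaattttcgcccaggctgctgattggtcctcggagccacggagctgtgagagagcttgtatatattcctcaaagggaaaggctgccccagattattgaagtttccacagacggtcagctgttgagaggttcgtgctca

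A promoter window was found for 21 of the 30 genes. AGGAAG or its reverse complement occurred in windows of 8 of 12 endothelial genes (9 of 15 windows), in 0 of 7 mural genes and in 1 of 2 leptomeningeal genes, against 35.4% of all 32851 windows. The endothelial genes with it were Flt1, Slco1a4, Ly6c1, Itm2a, Abcb1a, Slco1c1, Egfl7 and Eng. TATAAA occurred in 4 endothelial genes (Flt1, Ly6c1, Slc2a1 and Slco1c1) and in the mural gene Vtn, against 13.6% of all windows. A match is a description of letters, and no difference was tested.

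The receptors of endothelial growth signals were led by Flt1 (VEGF receptor 1; chromosome 5, 147561604 to 147726011, minus strand), at 37.6 and 21.0 CPM in replicates 3 and 4, against 58.3 and 56.6 CPM in replicates 1 and 2. Kdr (VEGF receptor 2, the main signalling receptor for VEGF-A) was at 1.89 and 0.261 CPM in replicates 3 and 4, and at 2.18 and 5.01 CPM in replicates 1 and 2. Flt1 exceeded Kdr per kb in 4 of 4 libraries, by a log2 ratio of 2.26 ± 0.32 (SD, n = 4) with a pseudocount of 0.5. Kdr is so low that the pseudocount sets the size of this ratio, which was 3.33 with 0.1 and 1.70 with 1. Tek (TIE2, the angiopoietin receptor) was at 2.67 and 1.89 CPM in replicates 3 and 4, against 13.2 and 9.71 CPM in replicates 1 and 2. All 3 receptor genes were lower in both libraries of the second pair, without overlap in CPM, as were 23.8% of all tested genes. For Kdr the gap was narrow. Its exact interval of counting error was 1.21 to 2.80 CPM in replicate 3 and 1.59 to 2.90 CPM in replicate 1. These intervals overlap, so counting error alone spans the gap. The gap also depends on the totals: with Rn45s left out of them, Kdr in replicate 3 would lie above replicate 1, and its pairs would overlap. Eng (endoglin, a co-receptor of the TGF-beta family) followed another order, with 7.23 and 0.457 CPM in replicates 3 and 4, and 0.757 and 5.85 CPM in replicates 1 and 2.

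Genes of the junctions between endothelial cells were low and uneven. Pecam1 (CD31, an adhesion molecule) was at 9.66 and 1.96 CPM in replicates 3 and 4, and at 7.33 and 40.4 CPM in replicates 1 and 2. Cdh5 (VE-cadherin of the adherens junction) was at 5.18 and 0.392 CPM in replicates 3 and 4, and at 2.93 and 16.6 CPM in replicates 1 and 2. For both genes replicate 2 was highest and replicate 4 lowest. Cldn5 (claudin 5, the main tight junction protein of the barrier; chromosome 16, 18776847 to 18778262, plus strand) had 39 and 0 counts in replicates 3 and 4, and 15 and 3 counts in replicates 1 and 2, or at most 3.06 CPM. Slc2a1 exceeded it per kb in 4 of 4 libraries, by a log2 ratio of 4.74 ± 1.39 (SD, n = 4) with a pseudocount of 0.5, 5.90 with 0.1 and 4.10 with 1. With 0 counts of Cldn5 in replicate 4, no fold is given. Esam, an adhesion molecule of tight junctions, went the other way in replicate 2, with 77 and 32 counts in replicates 3 and 4, and 155 and 1 in replicates 1 and 2. The secreted endothelial factor gene Egfl7 had a like profile, with 185 and 104 counts in replicates 3 and 4, and 175 and 5 in replicates 1 and 2. The 95% exact interval for Esam in replicate 2 was 0.00163 to 0.358 CPM, and in replicate 1 it was 6.22 to 8.58 CPM, so counting error alone does not span these libraries.

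Ly6c1, which encodes a surface protein of endothelial and myeloid cells, was at 23.0 and 2.02 CPM in replicates 3 and 4, and at 3.07 and 12.9 CPM in replicates 1 and 2. Itm2a, a membrane protein gene used as an endothelial marker, was at 3.61 and 1.96 CPM in replicates 3 and 4, against 12.5 and 22 CPM in replicates 1 and 2. The pairs overlapped for Ly6c1 and did not for Itm2a. The related gene Itm2c, which neurons make, went the opposite way to Itm2a and was called (log2 change 2.74, SE 0.59, edgeR adjusted p = 0.0447, but 0.247 without replicate 3). Itm2c was at 86.9 and 54.1 CPM in replicates 3 and 4, against 12.3 and 9.45 CPM in replicates 1 and 2. Ly6c1 has a close relative, Ly6c2, with a coding sequence of 393 bases against 441. Of the 50-base transcript windows of Ly6c1, 36.7% occur in transcripts of other genes (31.7% in those of Ly6c2), so its counts are uncertain. Ly6c2 had 0 and 9 counts in replicates 3 and 4, and 0 and 2 in replicates 1 and 2. The first 120 coding bases of both, from GENCODE M21 (GRCm38, chromosome 15, minus strand), are shown with the 6 differing bases in capitals. The near identity seen there is that of this stretch only.
Ly6c1: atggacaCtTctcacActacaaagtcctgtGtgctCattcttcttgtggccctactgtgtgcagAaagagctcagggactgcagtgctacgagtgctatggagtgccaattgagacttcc
Ly6c2: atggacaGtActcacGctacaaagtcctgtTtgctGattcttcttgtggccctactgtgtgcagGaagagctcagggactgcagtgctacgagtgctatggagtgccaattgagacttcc

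The highest mural gene on average was Rgs5 (a regulator of G protein signalling and a pericyte marker; chromosome 1, 169655501 to 169695813, plus strand). Rgs5 was at 81.4 and 86.2 CPM in replicates 3 and 4, against 62.0 and 32.5 CPM in replicates 1 and 2, which do not overlap. It made up 34.8% to 68.7% of the summed CPM of the 10 mural genes, with the lowest share in replicate 2, where Abcc9 was slightly higher at 33.6 CPM. Pdgfrb, the receptor by which pericytes answer endothelial PDGF-B, was far lower, with 0.628 and 7.90 CPM in replicates 3 and 4, and 2.60 and 5.27 CPM in replicates 1 and 2. Rgs5 exceeded Pdgfrb per kb in 4 of 4 libraries, by a log2 ratio of 3.62 ± 1.05 (SD, n = 4) with a pseudocount of 0.5, 4.34 with 0.1 and 3.12 with 1. The pericyte genes Anpep (aminopeptidase N) and Higd1b were nearly missing. Anpep had 17 and 1 counts in replicates 3 and 4, and 20 and 1 in replicates 1 and 2. Higd1b had 27 counts in replicate 3 and 0 in each of the other 3 libraries.

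Kcnj8 and Abcc9 encode the pore and the regulatory subunit of a pericyte ATP-sensitive potassium channel and lie 16.2 kb apart on chromosome 6. Kcnj8 was at 6.91 and 0 CPM in replicates 3 and 4, and at 3.12 and 0.321 CPM in replicates 1 and 2. Abcc9 was at 13.1 and 8.03 CPM in replicates 3 and 4, and at 15.8 and 33.6 CPM in replicates 1 and 2. Both subunit genes were lowest in replicate 4, but replicate 2, the highest library for Abcc9, held only 5 counts of Kcnj8. Their log2 ratio per kb ran between -2.85 and 0.64, with a mean of -1.06 ± 1.49 (SD, n = 4).

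The contractile genes Acta2 and Tagln differed widely between libraries. Acta2 (smooth muscle alpha-actin; chromosome 19, 34241090 to 34255590, minus strand) was at 21.1 and 1.83 CPM in replicates 3 and 4, against 0.284 and 0.707 CPM in replicates 1 and 2. Tagln (transgelin, an actin-binding protein of smooth muscle; chromosome 9, 45929619 to 45936058, minus strand) was at 4.01 and 12.9 CPM in replicates 3 and 4, against 0.189 and 0.257 CPM in replicates 1 and 2. Both genes were higher in each library of the second pair, Acta2 most in replicate 3 and Tagln most in replicate 4. Their log2 ratio per kb, Tagln to Acta2, was -2.01 and 2.39 in replicates 3 and 4, and -0.08 and -0.39 in replicates 1 and 2. Myl9 (the regulatory light chain of smooth muscle myosin) did not share this order, with 4.40 and 3.13 CPM in replicates 3 and 4, and 2.13 and 13.1 CPM in replicates 1 and 2. The smooth muscle actin gene Actg2, a close relative of Acta2, had 0 counts in all 4 libraries. Vtn (vitronectin, made by brain pericytes) was at 9.43 and 11.6 CPM in replicates 3 and 4, against 3.17 and 7.59 CPM in replicates 1 and 2, again without overlap.

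Leptomeningeal genes were the lowest class apart from Igf2 and Dcn. Igf2 (insulin-like growth factor 2, an imprinted gene of leptomeninges and choroid plexus; chromosome 7, 142650766 to 142666816, minus strand) was at 1.65 and 9.21 CPM in replicates 3 and 4, against 23.6 and 28.2 CPM in replicates 1 and 2. In GENCODE M21 a further gene model, Gm49394, holds 75.9% of the 50-base windows of Igf2, and the annotation used for counting was not given. Dcn (decorin, a small proteoglycan that binds collagen) was at 3.22 and 10.1 CPM in replicates 3 and 4, and at 9.46 and 3.79 CPM in replicates 1 and 2. The collagen genes were sparse: Col1a1 had 6 and 15 counts in replicates 3 and 4, and 87 and 16 in replicates 1 and 2. Col1a2, whose product joins that of Col1a1 in the type I collagen triple helix, had 0 and 61 counts in replicates 3 and 4, and 28 and 107 in replicates 1 and 2. The collagen pair did not move together, and their log2 ratio per kb was above 0 in 2 of 4 libraries. Lum (lumican), which neighbours Dcn at 47.0 kb on chromosome 10, had 1 and 3 counts in replicates 3 and 4, and 4 and 0 in replicates 1 and 2.

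The libraries ranked differently for each class. Replicate 4 was the lowest library for 11 of 15 endothelial genes, for 2 of 10 mural genes (Kcnj8 and Abcc9) and for 0 of 5 leptomeningeal genes. Higd1b, at 0 in 3 libraries, has no single lowest one. Over all tested genes, replicate 4 was lowest for 19.9%. The other 4 endothelial genes were Esam and Egfl7 (lowest in replicate 2), Slc2a1 (replicate 3) and Slco1c1 (replicate 1). Being lowest in replicate 3 depends on the total, of which Rn45s took 24.2%. With totals without the 20 most abundant rows, the members lowest in replicate 3 went from 6 to 4, while 13 stayed lowest in replicate 4. Summed over the 15 endothelial genes, levels were 226 and 153 CPM in replicates 3 and 4, and 301 and 421 CPM in replicates 1 and 2. The mural sum was 144 and 132 CPM in replicates 3 and 4, against 90.3 and 93.4 CPM in replicates 1 and 2. Without Rgs5 it was 63.1 and 45.5 CPM in replicates 3 and 4, and 28.3 and 60.9 CPM in replicates 1 and 2, so the pairs then overlapped. The endothelial sum was therefore 1.57 and 1.17 times the mural sum in replicates 3 and 4, against 3.34 and 4.51 times in replicates 1 and 2. Without Slc2a1 and Rgs5, the highest gene of each class on average, the ratios were 2.56 and 1.39 in replicates 3 and 4, against 7.78 and 4.84 in replicates 1 and 2. The leptomeningeal sum was 5.42 and 24.4 CPM in replicates 3 and 4, against 38.7 and 39.9 CPM in replicates 1 and 2. In RNA purified from a mix of cells, several sources of such differences cannot be told apart. They include the number of cells of a type, their RNA per cell, whether they carry the tag, and untagged RNA left in the pulldown. These sums are descriptions of chosen genes and were not tested.

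**Figure D2:**
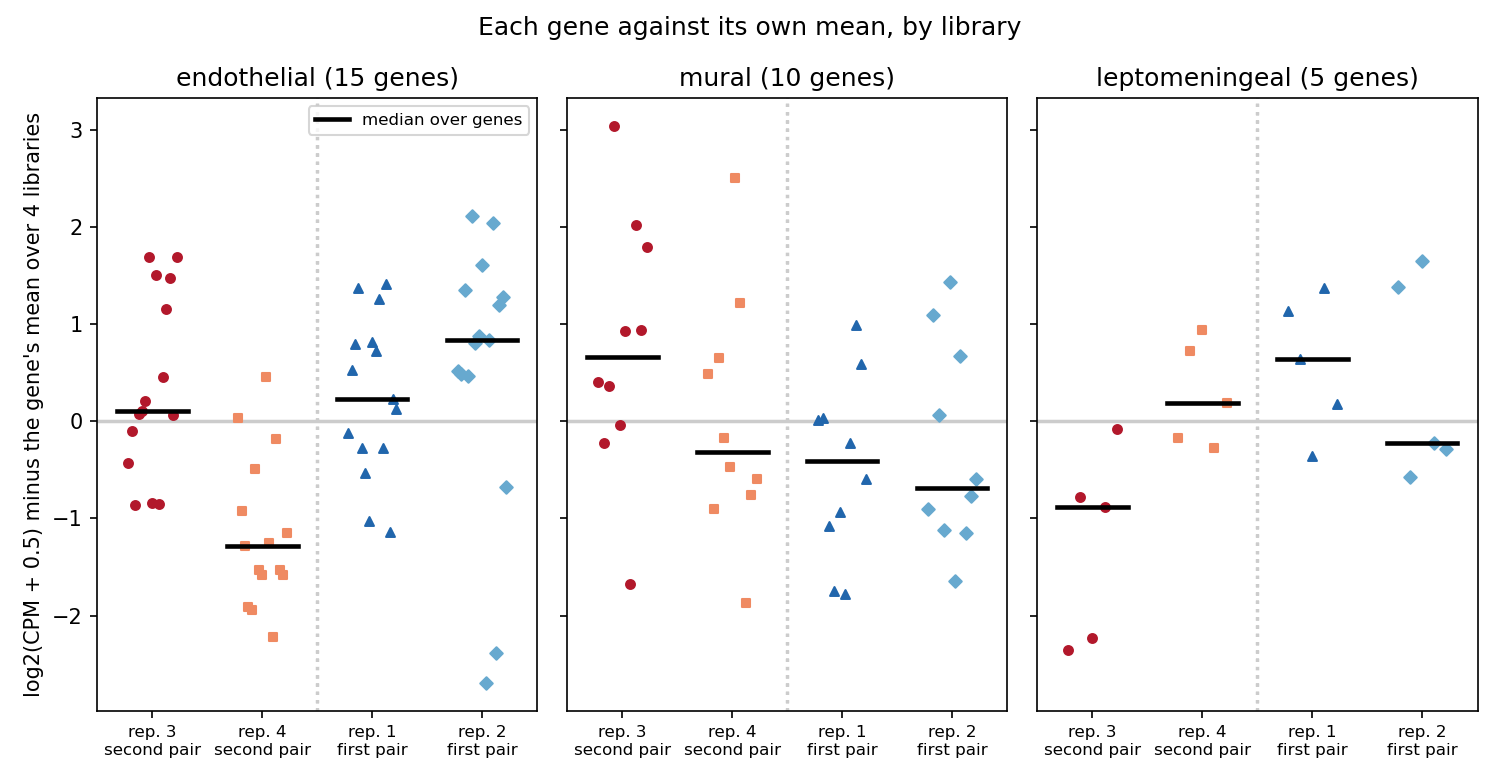
Deviation of each gene from its own mean over the 4 libraries, in log2(CPM + 0.5), for the 3 classes, with the black bar at the median over genes. The endothelial median was 0.10 and -1.29 in replicates 3 and 4, and 0.23 and 0.84 in replicates 1 and 2, while the mural median was 0.67 and -0.32 in replicates 3 and 4, and -0.41 and -0.68 in replicates 1 and 2.

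Between the pairs, 0 of 28 tested members passed (edgeR quasi-likelihood test, Benjamini-Hochberg adjusted p under 0.05), where 1.27% of all 13905 tested genes did (0.712% higher and 0.554% lower in the second pair). Higd1b and Lum were too low to be tested. At an unadjusted p under 0.05 there were 5 of 28 members, against 16.8% of all tested genes, and DESeq2 called 3 members, Slco1a4, Acta2 and Tagln, where it called 9.6% of all genes with an adjusted p. The 5 were Slco1a4, Itm2a and Igf2 with negative and Acta2 and Tagln with positive log2 changes. Slco1a4 came closest, with 15.3 CPM in the second pair and 70.1 CPM in the first, a log2 change of -2.16 (SE 0.57, edgeR adjusted p = 0.0793). For Acta2 the log2 change was 4.62 (SE 1.60, edgeR adjusted p = 0.163), with 11.5 CPM in the second pair and 0.495 CPM in the first. For Tagln it was 5.16 (SE 1.69, edgeR adjusted p = 0.144), with 8.47 CPM in the second pair and 0.223 CPM in the first. Without replicate 3 the log2 change of Acta2 was 1.76, and without replicate 4 it was 5.52 with an edgeR adjusted p of 0.0447, so replicate 3 decides its size.

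By class, log2 changes were below 0 for 10 of 15 endothelial genes (median -0.92), for 2 of 9 tested mural genes (median 0.85) and for 4 of 4 tested leptomeningeal genes (median -1.48), beside a median of -0.03 over all tested genes. Libraries of the pairs did not overlap for 4 members that were higher in the second pair (Rgs5, Acta2, Tagln and Vtn), where 23.7% of all tested genes were, and for 9 that were lower, where 23.8% of all tested genes were. The 9 were Flt1, Tek, Slco1a4, Itm2a, Kdr, Abcb1a, Abcc9, Col1a1 and Igf2. Gaps were narrow for Kdr and Abcc9 (1.89 and 13.1 CPM in replicate 3, against 2.18 and 15.8 CPM in replicate 1). The same held for Col1a1 (0.979 CPM in replicate 4 against 1.03 CPM in replicate 2). Totals behind these CPM include Rn45s, which took 24.2% of replicate 3 and 9.29% of replicate 4. With Rn45s left out of the totals, Kdr and Abcc9 in replicate 3 would lie above replicate 1. Col1a1 in replicate 4 would likewise lie above replicate 2, so the pairs would overlap for these genes. The share of all tested genes without overlap was not recomputed on such totals. In CPM with Rn45s, all non-overlapping endothelial genes were lower, and all but Abcc9 of the non-overlapping mural genes were higher. No difference between the classes was tested.

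**Figure D3:**
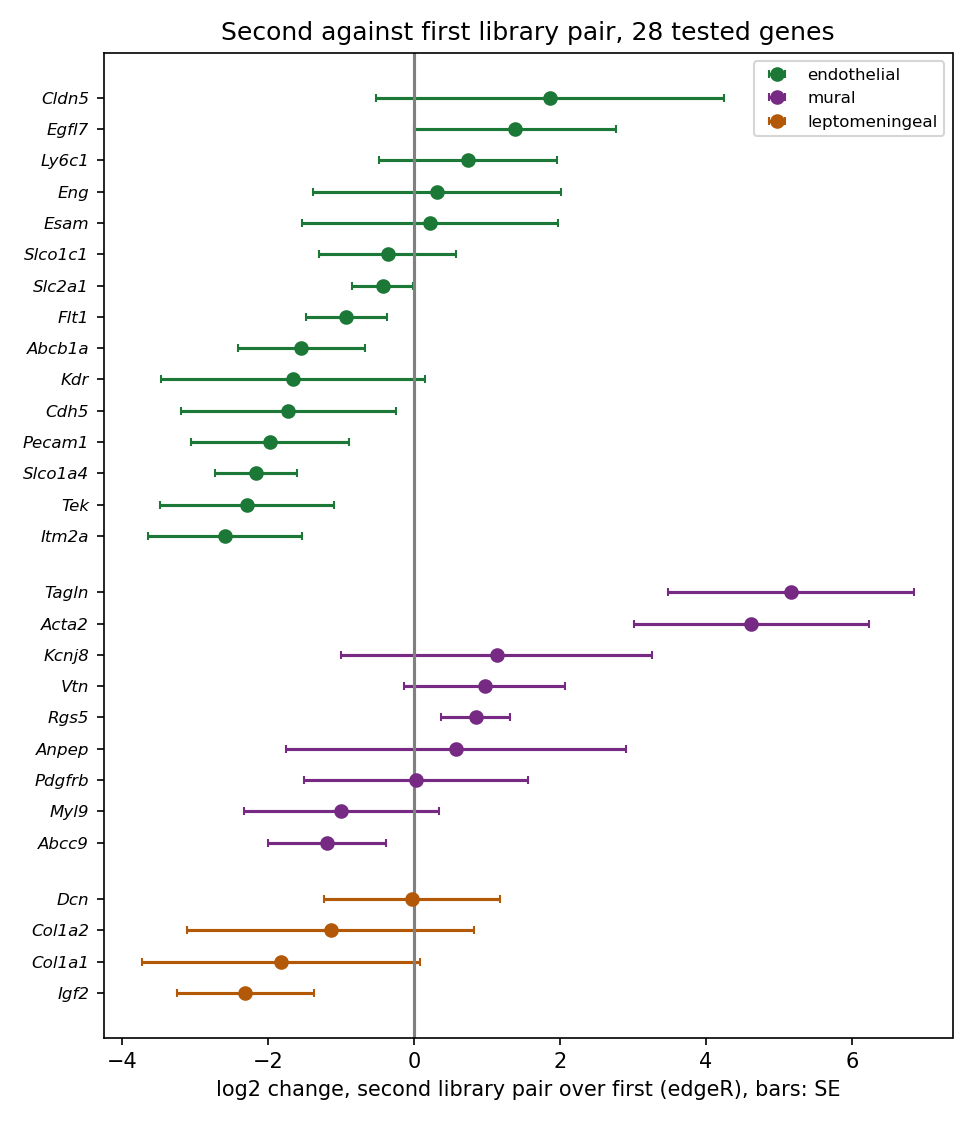
Log2 change of the second library pair over the first for the 28 tested genes, with bars of 1 standard error from the edgeR fit. Acta2 and Tagln lie at 4.62 and 5.16 with SE of 1.60 and 1.69, and Slco1a4 at -2.16 with the shorter bar of 0.57.

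The spread between replicates was wide for these genes. Among the 26 members of at least 1 CPM on average, the median SD of log2(CPM + 0.5) was 1.33, and over 13841 shared rows at that level it was 0.81. The members had a lower median level, 7.17 CPM against 18.9 CPM, so the comparison of spreads is not at equal level. For 19 of the 30 genes the highest library was over 10 times the lowest or the lowest was at 0 counts. The 10 ratios between members were chosen with earlier results of these data known, so their directions are descriptions and no independent support. Of these ratios, 5 kept 1 direction in 4 of 4 libraries: Slc2a1 over Cldn5, Flt1 over Kdr, Rgs5 over Pdgfrb, Rgs5 over Acta2 and Slco1a4 over Slco1c1. Each of the 5 had a two-sided exact sign-flip permutation p of 0.125, the smallest that 4 libraries allow, and 0.25 after Benjamini-Hochberg adjustment over the 10. The design cannot reach 0.05, and only the first 3 had a mean over 2 SD. Neither Cdh5 against Cldn5 (log2 0.67 ± 1.48) nor Pecam1 against Pdgfrb (0.88 ± 1.55) exceeded the spread (SD, n = 4), with exact permutation p of 0.625 and 0.375.

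Further genes of the same cells, listed by name, were also present. Of 30 further endothelial genes 21 reached 1 CPM in all 4 libraries, led by the junction scaffold gene Tjp1 at 225 ± 116 CPM (SD, n = 4), the surface glycoprotein gene Bsg at 158 ± 32.1 and the receptor phosphatase gene Ptprb at 113 ± 83.3. Tjp1 and Bsg are made by many cell types, Ptprb mainly by endothelium. Ptprb was at 64.8 and 19.9 CPM in replicates 3 and 4, against 190 and 176 CPM in replicates 1 and 2, and replicate 4 was its lowest library. Across these 30 genes replicate 4 was lowest for 14. Of 29 tested, 0 passed the edgeR test between the pairs and 11 had an unadjusted p under 0.05, a level that 16.8% of all tested genes reached.

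Of 20 further mural genes 9 reached 1 CPM throughout. The highest were Gucy1a1 and Gucy1b1, subunits of the nitric oxide receptor that neurons make too, at 104 ± 47.7 and 82.0 ± 13.3 CPM (SD, n = 4), and the tropomyosin gene Tpm2 at 21.2 ± 8.82. The pericyte transcription factor gene Foxs1 had 0 counts in all 4 libraries. Of 20 further fibroblast genes 4 reached 1 CPM throughout, and 12 were at 0 counts in at least 1 library. They were led by the fibronectin gene Fn1 at 65.1 ± 8.63 CPM, the biglycan gene Bgn at 8.07 ± 7.88 and the GABA transporter gene Slc6a13 at 7.27 ± 5.0. No gene of the mural and fibroblast lists passed the edgeR test (0 of 12 and 0 of 11 tested, with 0 and 2 at an unadjusted p under 0.05).

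Basement membrane genes, whose products lie between endothelium and mural cells, reached 1 CPM throughout in 9 of 12 cases. Sparc was at 136 ± 92.3 CPM (SD, n = 4), the laminin genes Lamc1 and Lama2 at 43.4 ± 17.4 and 34.7 ± 20.9, and replicate 4 was highest for 8 of the 12. Of 32 ligands and partners 15 reached 1 CPM throughout, with the receptor gene Igf1r at 133 ± 64.1 CPM, Pdgfa at 62.2 ± 52.4 and Vegfb at 46.3 ± 20.4. Vegfa, the ligand of Flt1 and Kdr, was at 17.2 and 26.5 CPM in replicates 3 and 4, and at 21.4 and 21.1 CPM in replicates 1 and 2. Pdgfb, a ligand of Pdgfrb, was the only gene of these 5 further lists that passed the edgeR test between the pairs (log2 change 7.55, SE 1.62, adjusted p = 0.0437). Which cells made it was not tested, and replicate 4 was the lowest library for 11 of 15 endothelial members. Pdgfb had 49 and 471 counts in replicates 3 and 4, and 2 and 1 in replicates 1 and 2. Most of its counts came from replicate 4, and without that library its edgeR adjusted p was 0.58.

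The level of vascular genes stood beside that of other cell types in the same RNA. The 10 neuronal genes summed to 12298 and 13295 CPM in replicates 3 and 4, against 26114 and 23381 CPM in replicates 1 and 2. The 10 astrocyte genes summed to 639 and 2615 CPM in replicates 3 and 4, and to 2104 and 2406 CPM in replicates 1 and 2. Replicate 4, lowest for most endothelial genes, had the highest sums of astrocyte, oligodendrocyte, oligodendrocyte precursor, microglia, and ependymal and choroid genes. The ependymal and choroid sum, which matters for Igf2, was 21.5 and 143 CPM in replicates 3 and 4, and 20.9 and 15.6 CPM in replicates 1 and 2, and Folr1 and Aqp1 of that list had 0 counts in all 4 libraries. The 3 measured blood genes summed to 6.52 and 1.89 CPM in replicates 3 and 4, and to 15.3 and 3.54 CPM in replicates 1 and 2. Between the pairs, the neuronal genes Nefm and Tubb3 and the cerebellar granule cell genes Cbln3 and Neurod1 were the only genes of the cell type lists called by edgeR. Their log2 changes were -2.56 for Nefm, 1.97 for Tubb3, -2.58 for Cbln3 and -3.75 for Neurod1. The 8 cerebellar granule cell genes summed to 186 and 305 CPM in replicates 3 and 4, against 603 and 1508 CPM in replicates 1 and 2. All 7 tested genes of that list had negative log2 changes with an unadjusted edgeR p under 0.05, a level that 16.8% of all tested genes reached. The part of these cell types in the vascular results was not tested.

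**Figure D4:**
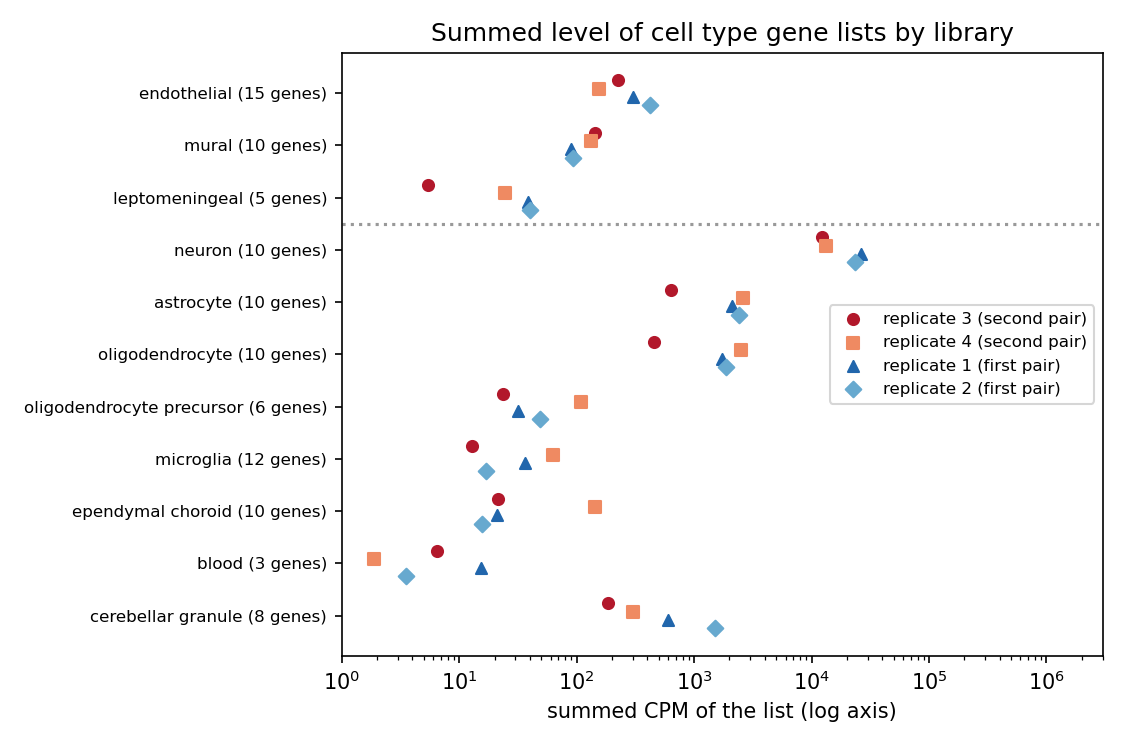
Summed CPM of the 3 vascular and leptomeningeal lists and of 8 lists of other cell types in each library, on a log axis. The endothelial sum is lowest in replicate 4 at 153 CPM, where the ependymal and choroid sum is highest at 143 CPM, and the leptomeningeal sum is lowest in replicate 3 at 5.42 CPM.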

How the data were processed

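Read counts per gene symbol were deposited for 4 libraries without normalization. Per the submitters' processing notes, the authors aligned to mm10 and counted with tools that include STAR 2.0.0e and HTSeq. Neither the annotation nor the strand setting was stated, and overlapping genes may therefore share counts. The 5 HTSeq summary rows and the row unknown, with 0 counts, were left out. Of all counts in a table, reads outside features made up 24.0% to 30.1%, reads with several alignments 28.6% to 37.2% and ambiguous reads 1.25% to 2.07%. The tables shared 31735 gene rows.

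CPM were computed over all gene rows of a library, and divided by union exon length (GENCODE M21) wherever levels of different genes were compared, with a pseudocount of 0.5 on log scales. The 30 genes, the gene lists and the 10 ratios were chosen with earlier results of these data known. The rule asked for values in every library for members at 1 CPM throughout, for members called, and for those at 0 counts in a library and at 5 CPM in another; the other members shown in full were picked with their values in view. Each further list is represented by its 3 highest genes and those called, and cell type lists by their sums and called genes. Vegfa, Foxs1, Folr1 and Aqp1 were added after their values were seen.

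The pairs were compared with edgeR 4.0.16 (TMM, filterByExpr, quasi-likelihood, Benjamini-Hochberg over 13905 genes) in R 4.3.3, with DESeq2 1.42.0 as an alternative. The edgeR procedure was first run on counts simulated with the dispersions that edgeR fitted to these data. Such a run cannot show how well the calls hold in the real libraries. Other filters, scalings, pseudocounts and sets of libraries were also run. Windows of 50 bases shared between genes were counted in GENCODE M21 transcripts.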

Additional observations from a re-analysis of the deposited data

Results flagged for a closer look

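Of 46 values examined for a library that stands apart from the other 3, 3 were found, where chance gives about 1 in 20. Acta2 was at 21.1 CPM in replicate 3, far above the other libraries. Higd1b was at 2.12 CPM in replicate 3 and at 0 counts in the others. Col1a1 was at 4.12 CPM in replicate 1, above the other 3 libraries.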

How the results depend on the processing

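The count of genes called between the pairs was 176, and it was 1386 by DESeq2, 875 with no filter on low counts and 389 to 699 when 1 replicate was left out. The count of members called was 0, and it was 3 by DESeq2, 1 with no filter (Slco1a4, adjusted p = 0.0129) and 0 to 1 when 1 replicate was left out (Slco1a4 without replicate 1, Acta2 without replicate 4). The cause was not tested. The 15 members at 1 CPM throughout became 11 to 17 under all alternatives run. Without division by length, the class medians were 2.96 for endothelial, 1.99 for mural and 1.61 for leptomeningeal genes. With pseudocounts of 0.1 and 1 the leptomeningeal median was -1.22 and 0.46. With 1 replicate left out, the class medians lay at 1.07 to 1.68, 0.42 to 0.92 and -0.34 to -0.01. Of the recomputed log2 changes of members, 18 changed sign (each without 1 replicate, and none with a call), 6 gained a call and 226 did neither. Their ranges were -6.02 to 3.03 for Cldn5, -4.73 to 0.079 for Cdh5, -2.09 to 2.17 for Ly6c1, -0.92 to 0.54 for Slco1c1, -0.91 to 5.85 for Esam, -2.95 to 2.49 for Eng and -2.52 to 0.90 for Pdgfrb. They were -7.92 to 3.49 for Kcnj8, -1.79 to 0.89 for Myl9, -2.91 to 3.36 for Anpep, -0.91 to 0.74 for Dcn and -9.07 to 0.51 for Col1a2. The lowest values of Cldn5, Kcnj8 and Col1a2 set 0 counts against some, and are no bounds. Of the log2 ratios, Cdh5 to Cldn5 ran from -0.038 to 1.11, Col1a2 to Col1a1 from -0.25 to 0.28 (0.39 without length) and Tagln to Acta2 from -0.82 to 0.64 without 1 replicate. Chosen after seeing the data, totals without the 20 most abundant rows left 13 members lowest in replicate 4, as before, and Pdgfb and Itm2c, of the 6 further genes called, each lost the call without 1 replicate (4 and 3). No paired analysis was possible because all 4 libraries form 1 group. Depth limits the genes of a few counts, such as Lum and Higd1b.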
